A study of Mus musculus with 2 samples.

Results

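The AT2 cells with the highest early-response load were the 10% of cells in each library whose RNA held the largest share of 6 early-response genes, Jun, Fos, Fosb, Atf3, Egr1 and Ier2. There were 1378 of them among 13772 AT2 cells, and 18938 barcodes were listed in all. They are called high-score cells here. Barcodes entered with at least 500 genes, at most 20% mitochondrial UMIs (unique molecular identifiers, each marking 1 captured RNA molecule), at least 5000 UMIs and at least 10% of UMIs from Sftpc, the surfactant protein C gene. The score was the UMIs of the 6 genes over all UMIs of the cell. High-score cells were set against the mid-score cells of their own library, those between the 25th and the 75th percentile of the score. With the score as the rule, the levels of the 6 genes are a description of the choice and not a finding.

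Single cells were sorted from mouse lung as EpCAM+ cells without CD31, CD34, CD45, CD24 or Sca-1 on their surface, and the submitters call them alveolar type 2 (AT2) epithelial cells. One library came from male mice labelled IP-/- (IPKO), where IP is the prostaglandin I2 receptor encoded by Ptgir, and 1 library came from male mice labelled WT. Neither label names an age, a strain, a treatment, an injury, the kind of deletion or the number of mice pooled. The library labelled IPKO gave 738 high-score and 3690 mid-score cells out of 7380 AT2 cells, and the library labelled WT gave 640 and 3196 out of 6392. The whole libraries held 137471506 UMIs labelled IPKO and 127287281 labelled WT. With 1 library for each label there are no replicates and no test was possible. Every range given with a level or a ratio is a 95% interval for counting error alone.

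AT2 cells make surfactant, the lipid and protein film that keeps alveoli open, and they act as progenitors of the thin alveolar type 1 (AT1) cells that line the air space. Early-response genes are switched on within minutes of a growth factor, a stress or handling of the tissue, without new protein synthesis, and their RNAs are short-lived. JUN and FOS proteins pair into the transcription factor AP-1, ATF3 and EGR1 are further inducible transcription factors, and IER2 is a nuclear protein of the same early wave. Enzymatic dissociation of tissue is a known inducer of these genes, and no undissociated tissue was analysed here.

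The score formed a continuous range with no gap at the boundary. In units of UMIs per 10000 UMIs of the cell, the 90th percentile lay at 71.2 in the library labelled IPKO and at 46.2 in the library labelled WT. The lowest high-score cell labelled IPKO stood at 71.1653 and the next cell below it at 71.1639, and labelled WT these were 46.1681 and 46.1598. High-score cells had a median score of 83.7 labelled IPKO (highest 185) and 56.8 labelled WT (highest 135). Mid-score cells had medians of 34.3 labelled IPKO and 15.1 labelled WT. A high-score cell held a median of 135 UMIs of the 6 genes labelled IPKO (lowest 40) and 97 labelled WT (lowest 33).

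**Figure D1:**
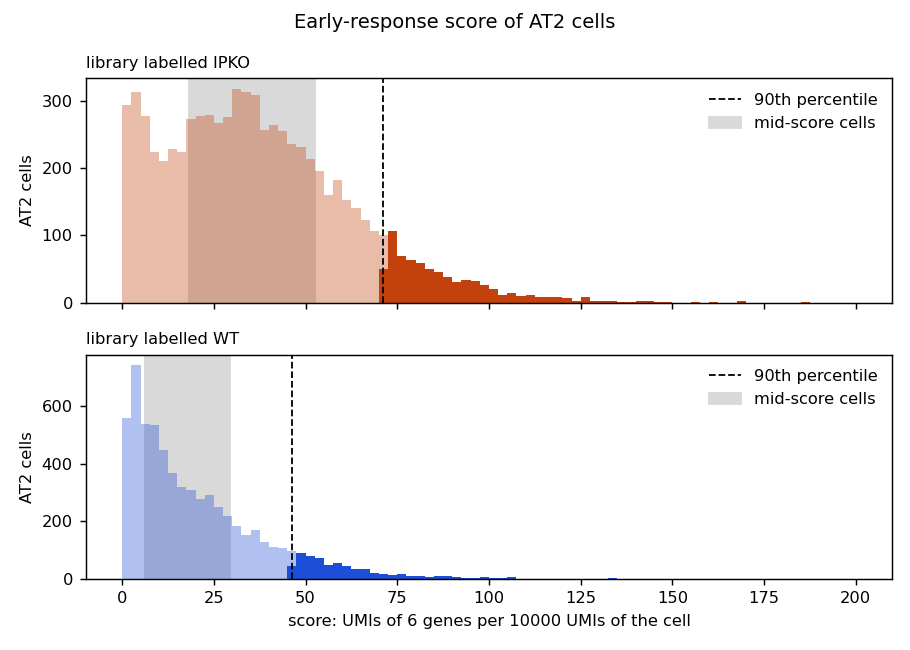
Number of AT2 cells (vertical axis) by score (horizontal axis, UMIs of the 6 genes per 10000 UMIs of the cell) in the library labelled IPKO (upper panel) and the library labelled WT (lower panel). Dark bars are high-score cells, the grey band holds the mid-score cells and the dashed line is the 90th percentile, at 71.2 labelled IPKO and 46.2 labelled WT.

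The same rank meant different loads in the libraries. Among AT2 cells labelled IPKO, 2414 (32.7%) lay above the boundary of the library labelled WT, and among AT2 cells labelled WT 113 (1.77%) lay above the boundary of the library labelled IPKO. A single boundary of 62.4 over both libraries would take 1166 cells (15.8%) labelled IPKO and 212 (3.32%) labelled WT. The median high-score cell labelled WT would rank at percentile 79.3 among AT2 cells labelled IPKO. Whether this comes from genotype, from handling or from the mice cannot be told apart with 1 library each.

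Ptgir, the targeted gene, went against the labels. High-score cells labelled IPKO held 34 Ptgir UMIs, or 2.88 UMIs per 1000000 UMIs of those cells (CPM, 2.00 to 4.03), and their mid-score cells held 158, or 2.36 CPM (2.00 to 2.75). No Ptgir UMI was found in the high-score cells labelled WT, where the upper limit was 0.339 CPM (0.276 CPM at a floor of 3 counts), and none in their mid-score cells (upper limit 0.0591 CPM). Over all AT2 cells, 298 of 7380 cells labelled IPKO held 313 Ptgir UMIs. None was found in the 6392 AT2 cells labelled WT (upper limit 0.0303 CPM). The counted tag lies near the end of the transcript, so it checks nothing about a part deleted elsewhere in the gene. That limit does not concern the missing UMIs labelled WT. Whether the labels were exchanged was not tested, and every ratio between the libraries depends on the labels. Ptgir lies at chr7:16906490-16910905 (GRCm38, plus strand), and of the 6 score genes Fosb lies on the same chromosome, 2.39 Mb away. The libraries are therefore named by their labels throughout.

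The rule itself required Sftpc, so Sftpc says nothing about the label, and the other AT2 markers do, none of which was at 0 in high-score cells. Sftpb, another surfactant protein gene, stood at 9383 CPM in high-score cells and 9438 CPM in mid-score cells labelled IPKO, and at 10748 and 10525 CPM labelled WT. Lamp3, a lamellar body membrane protein gene, stood at 1583 against 1501 CPM labelled IPKO and 1737 against 1626 CPM labelled WT. By the rule's own gene, Sftpc took a median of 19.4% of UMIs in high-score cells and 21.0% in mid-score cells labelled IPKO, and 19.6% and 21.2% labelled WT. Sort-excluded types left little RNA. Markers of neutrophils, T and NK cells, and macrophages each summed to under 2 CPM in high-score cells of both libraries, and S100a8, Csf3r, Nkg7 and Klrd1 were at 0 labelled IPKO. Marco was at 0 in both. Labelled WT, Cd3d, Cd3e, Cd3g, Nkg7, Klrd1, Csf3r, C1qa, Mrc1, Ccr2 and Adgre1 were also at 0.

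Endothelial markers summed to 27.0 CPM in high-score cells and 19.2 CPM in mid-score cells labelled IPKO, and 16.5 and 13.0 CPM labelled WT. Mesenchymal markers summed to 28.9 CPM in high-score cells labelled WT, with 299 of the 315 UMIs in 1 cell, against 0.705 CPM in mid-score cells, and to 1.36 against 2.46 CPM labelled IPKO. B cell markers summed to 24.2 CPM in high-score cells and 26.2 CPM in mid-score cells labelled IPKO, and 25.2 and 21.8 CPM labelled WT. Ciliated cell markers summed to 83.6 against 80.1 CPM labelled IPKO and 66.8 against 56.1 CPM labelled WT. The sum of airway club cell markers was lower: 269 against 351 CPM labelled IPKO and 727 against 1223 CPM labelled WT. In high-score cells Scgb1a1 held 2817 of the 3174 UMIs of this sum labelled IPKO and 7702 of 7912 labelled WT. The sum therefore describes mainly this gene and says little about the other club cell markers. Without cells holding 3 or more UMIs of endothelial, mesenchymal or immune markers, the counts of differing genes given below stayed within 1.5 times.

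Depth differed slightly. High-score cells had a median of 15849.5 UMIs against 17414.5 in mid-score cells labelled IPKO, and 16746 against 18577.5 labelled WT. Thinned to 5000 UMIs, high-score cells showed a median of 1569.5 genes against 1497 labelled IPKO, and 1552.5 against 1463 labelled WT. Mitochondrial UMIs took a median of 3.69% in high-score cells and 3.93% in mid-score cells labelled IPKO, and 4.98% and 5.23% labelled WT. Over AT2 cells, Spearman's rho of the score with total UMIs was -0.10 labelled IPKO and -0.12 labelled WT, and with the share of Sftpc it was -0.20 and -0.18. The libraries shared 79 barcodes, of which 4 in each library were high-score cells. Taking them out left the counts of differing genes within 1.5 times.

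Jun led the load. Jun, an AP-1 subunit that the study names in its title, stood at 3316 CPM in high-score cells and 1367 CPM in mid-score cells labelled IPKO, and at 2136 and 665 CPM labelled WT. Fos, its usual partner, stood at 1754 against 677 CPM labelled IPKO and 1686 against 387 CPM labelled WT. Of all score UMIs in high-score cells, Jun made up 38.0% labelled IPKO and 35.3% labelled WT, and Fos 20.1% and 27.9%. Jun in high-score cells thus stood 0.63 higher on the log2 scale labelled IPKO than labelled WT, while Fos was nearly level at 0.06.

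Fosb, another FOS family partner, stood at 1520 CPM in high-score cells and 661 CPM in mid-score cells labelled IPKO, and at 916 and 259 CPM labelled WT. Egr1, a zinc finger factor induced by growth signals, stood at 1031 against 310 CPM labelled IPKO and 668 against 121 CPM labelled WT. Ier2 stood at 708 against 302 CPM labelled IPKO and 344 against 127 CPM labelled WT. Atf3, a stress-induced factor and the scarcest of the 6, stood at 399 against 132 CPM labelled IPKO and 293 against 44.8 CPM labelled WT. Atf3 also had the widest step labelled WT, a log2 ratio of 2.71 (2.64 to 2.78), while Egr1 had it labelled IPKO, at 1.73 (1.70 to 1.77).

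**Figure D2:**
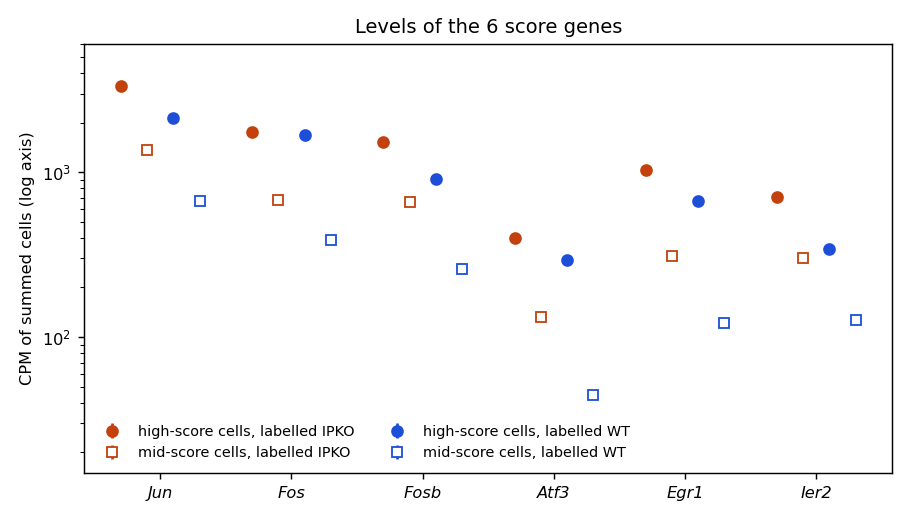
Level of each score gene (vertical log axis, CPM of summed cells) in high-score cells (filled circles) and mid-score cells (open squares) of the library labelled IPKO (orange) and the library labelled WT (blue). Counting intervals are drawn and are mostly smaller than the symbols. All 6 genes were higher in high-score cells, which is how the cells were chosen, and mid-score cells labelled IPKO lay above mid-score cells labelled WT for all 6.

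Each gene remained higher when it had no say in the choice. With the top 10% chosen by the other 5 genes, log2 ratios labelled IPKO ran from 0.76 for Jun (0.74 to 0.78) to 1.26 for Atf3 and Egr1. Labelled WT they ran from 1.25 for Ier2 (1.19 to 1.31) to 2.43 for Atf3 (2.36 to 2.50). With cells scored on a random set of their UMIs and levels read from the remaining UMIs, the ratios were 1.13 to 1.64 labelled IPKO and 1.42 to 2.64 labelled WT. The genes still share the cells and libraries, so these values describe how the genes went together and carry no test.

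The mixture of the 6 genes varied among high-score cells. After thinning to 5000 UMIs, 57.5% of high-score cells labelled IPKO and 70.0% labelled WT had at least 4 of the 6 genes above the 75th percentile of their library, against 0.759% and 0.814% of mid-score cells. The same genes' sum chose both kinds of cell, so this contrast was set by the rule and is a description. All 6 genes were above it in 22 high-score cells (2.98%) labelled IPKO and in 55 (8.59%) labelled WT. Among all AT2 cells, the 15 gene pairs had Spearman's rho between 0.21 and 0.44 labelled IPKO and between 0.18 and 0.49 labelled WT. Within the high-score cells the same pairs ran from -0.20 to 0.12 labelled IPKO and from -0.18 to 0.18 labelled WT, with Jun against Fos lowest in both. Choosing cells by a sum lowers such correlations by construction, and by how much was not tested here. Thinned counts per high-score cell labelled IPKO ran from 8 (10th percentile) to 26 (90th percentile) UMIs for Jun, from 3 to 16 for Fos and from 0 to 11 for Egr1.

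The promoters of the score genes are shown because their genes went together. The windows are the 250 bases before the RefSeq start on GRCm38.p6, printed 5′ to 3′ along the gene's strand, and 4 of the 6 genes were matched, all but Egr1 and Ier2. Capitals mark TGACG, the core of the cAMP response element TGACGTCA bound by the CREB and ATF families, on either strand (CGTCA on the other), the TATA box TATAAA, and the heat shock element GAANNTTC. The AP-1 element TGACTCA and the CArG box, bound by serum response factor, would be marked too, and neither was found in these 4 windows.
Fos, chr12:85473640-85473889, plus strand: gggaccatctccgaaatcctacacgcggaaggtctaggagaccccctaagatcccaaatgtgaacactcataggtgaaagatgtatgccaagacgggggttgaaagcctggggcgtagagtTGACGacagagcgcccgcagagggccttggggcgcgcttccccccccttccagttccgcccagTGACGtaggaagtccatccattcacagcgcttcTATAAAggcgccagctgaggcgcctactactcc
Fosb, chr7:19310046-19310295, minus strand: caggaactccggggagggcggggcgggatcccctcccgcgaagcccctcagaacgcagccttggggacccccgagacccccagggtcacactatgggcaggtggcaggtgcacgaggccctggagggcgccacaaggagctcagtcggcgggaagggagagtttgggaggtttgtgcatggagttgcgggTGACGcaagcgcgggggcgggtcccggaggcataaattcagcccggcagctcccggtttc
Atf3, chr1:191183334-191183583, minus strand: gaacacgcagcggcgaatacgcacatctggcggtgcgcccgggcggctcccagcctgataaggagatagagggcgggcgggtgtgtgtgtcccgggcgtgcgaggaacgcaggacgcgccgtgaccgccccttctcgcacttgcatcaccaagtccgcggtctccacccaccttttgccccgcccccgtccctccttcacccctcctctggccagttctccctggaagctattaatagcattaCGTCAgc
Jun, chr4:95052223-95052472, minus strand: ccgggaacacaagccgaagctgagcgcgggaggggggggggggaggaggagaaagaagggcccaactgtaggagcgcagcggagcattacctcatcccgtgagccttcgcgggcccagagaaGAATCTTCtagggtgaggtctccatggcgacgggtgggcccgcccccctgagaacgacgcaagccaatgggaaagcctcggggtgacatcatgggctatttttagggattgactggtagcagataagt
Fos carried TGACG at -129 and at -66 from its start and TATAAA at -33, Fosb carried TGACG at -60, Atf3 carried it at -7, and Jun carried GAANNTTC at -128. TGACG, on either strand, lies in 17.8% of all 32851 promoter windows of this length, TATAAA in 12.4%, GAANNTTC in 6.69%, TGACTCA in 4.46% and the CArG box in 1.47%. A match describes letters and shows no binding, and a window without one says nothing about the factor.

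Beyond the 6 score genes, few genes differed. Among genes with at least 5 CPM over the AT2 cells of a library, 58 of 8541 (0.679%) were at least 1.5-fold higher in high-score than in mid-score cells labelled IPKO and 11 (0.129%) at least 1.5-fold lower. Labelled WT, 90 of 8401 (1.07%) were higher and 23 (0.274%) lower. Of 8295 genes measured in both libraries, 26 (0.313%) were higher in both and 4 (0.0482%) lower in both (Lrg1, Retnla, Sprr1a and Dmkn), and no gene passed 1.5-fold in opposite directions. The 26 were 49.1% of the higher genes labelled IPKO and 31.0% of those labelled WT among genes measured in both. Median log2 ratios over all measured genes were 0.10 labelled IPKO and 0.13 labelled WT, so a list of genes stands out only by its distance from these values. Scaling by the median of ratios, which sets that median to 0, gave 26 higher and 17 lower genes labelled IPKO, and 38 higher and 40 lower labelled WT.

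**Figure D3:**
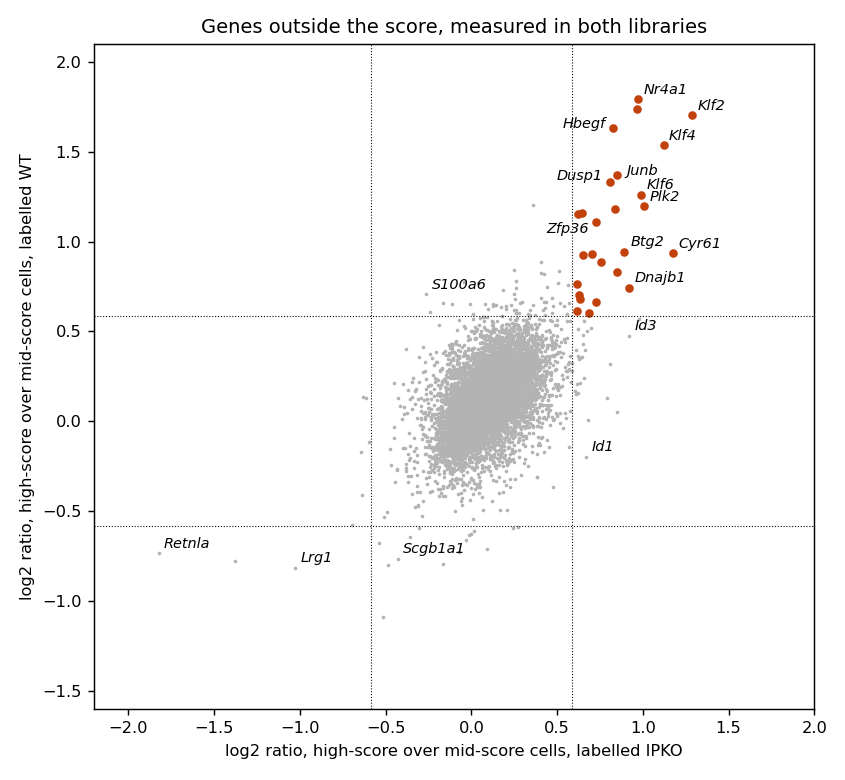
Each point is 1 gene outside the score, placed by its log2 ratio of high-score over mid-score cells in the library labelled IPKO (horizontal axis) and in the library labelled WT (vertical axis). Dotted lines mark 1.5-fold and orange points are the 26 genes higher in both. Sprr1a lies outside the axes, at -4.86 and -3.12. Most genes sit near the centre, and the orange points include Klf2, Klf4, Klf6, Nr4a1, Junb and Dusp1.

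The other early-response transcription factor genes were higher in part. Labelled IPKO, 6 of 17 measured were at least 1.5-fold higher, with a list median of 0.33, and labelled WT 6 of 18, with a median of 0.40. None was 1.5-fold lower in either library, and 4 (Klf2, Klf4, Klf6 and Nr4a1) were higher in both. Klf2, a Krüppel-like factor known for quiescence in endothelium and lymphocytes, stood at 88.6 CPM in high-score cells and 36.3 CPM in mid-score cells labelled IPKO, and at 24.4 and 7.51 CPM labelled WT. Klf4, a related factor of epithelial differentiation, stood at 74.3 against 34.2 CPM labelled IPKO and 76.4 against 26.3 CPM labelled WT, so its high-score levels were alike in both libraries. Klf6 stood at 427 against 215 CPM labelled IPKO and 291 against 121 CPM labelled WT.

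Nr4a1, an orphan nuclear receptor induced by cAMP and calcium signals, had the largest log2 ratio labelled WT among these genes, 1.79 (1.66 to 1.92), at 71.0 against 20.5 CPM. Labelled IPKO it stood at 101 against 51.3 CPM, a ratio of 0.97 (0.88 to 1.07). Others on the list did not pass 1.5-fold in both libraries. Id1 and Id3, inhibitors of helix-loop-helix factors, had ratios of 0.67 and 0.92 labelled IPKO but -0.20 and 0.48 labelled WT, and Csrnp1, at under 5 CPM labelled IPKO, had 0.52 there and 1.35 labelled WT. Klf10, the gene of a TGF-beta-inducible repressor, was near level, at 0.10 labelled IPKO and 0.06 labelled WT.

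Among the other JUN, FOS, ATF and MAF genes the load was uneven. Junb, the second JUN family gene, stood at 598 CPM in high-score cells and 332 CPM in mid-score cells labelled IPKO, and at 485 and 188 CPM labelled WT. Maff, a small MAF partner, was higher in both libraries, at log2 ratios of 0.73 (0.49 to 0.95) labelled IPKO and 0.66 (0.46 to 0.86) labelled WT. Its ratio was under 1.5-fold with the top 20% of cells, at 0.52 labelled IPKO and 0.48 labelled WT. Jund, the most constant JUN gene, had 0.56 labelled IPKO and 0.76 labelled WT, and Mafk 0.51 and 0.77. Batf and Atf5 had ratios from -0.17 to -0.09 in both libraries. In all, 2 of 12 measured genes were higher labelled IPKO and 4 of 11 labelled WT, with list medians of 0.30 and 0.25, and none was 1.5-fold lower.

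A minority of the feedback genes that damp the response were higher. On the list of MAPK phosphatase and RNA decay feedback genes, 7 of 20 measured were at least 1.5-fold higher labelled IPKO (median 0.31) and 8 of 20 labelled WT (median 0.51), and 6 were higher in both. Dusp1, a phosphatase that inactivates MAP kinases, stood at 408 CPM in high-score cells and 233 CPM in mid-score cells labelled IPKO, and at 338 and 134 CPM labelled WT. Zfp36, whose protein tristetraprolin speeds the decay of early-response RNAs, stood at 304 against 184 CPM labelled IPKO and 220 against 102 CPM labelled WT. Btg2, an antiproliferative factor that recruits deadenylases and is also a p53 target, stood at 549 against 297 CPM labelled IPKO and 390 against 203 CPM labelled WT.

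The 3 remaining feedback genes higher in both were Plk2, Trib1 and Ppp1r15a. Plk2, a stress-induced polo-like kinase, had log2 ratios of 1.01 labelled IPKO and 1.20 labelled WT. Trib1, a pseudokinase that directs proteins to degradation, had 0.62 (0.52 to 0.72) and 1.15 (1.05 to 1.26), and Ppp1r15a, which restores translation after stress by dephosphorylating eIF2 alpha, had 0.65 and 0.93. Under median-of-ratios scaling labelled IPKO both were below 1.5-fold, at 0.52 for Trib1 and 0.55 for Ppp1r15a. Gadd45g had 0.05 labelled IPKO and -0.35 labelled WT, and Spred2 had 0.02 and 0.19.

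The feedback genes and the score were high in the same cells, though not in all of them. Of high-score cells, 37.4% labelled IPKO and 41.4% labelled WT were also in the top 10% of AT2 cells by the summed share of the feedback genes, against 6.91% and 5.79% of mid-score cells. For the other transcription factor genes these shares were 31.0% and 36.7%, against 7.64% and 6.70%. These shares come from counts in the same cells as the score and are given without a test.

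Promoters of the genes higher in both libraries are shown next, for a MAP kinase phosphatase, a nuclear receptor and a chaperone that carry marked letters. Of the 26 genes 18 were matched to at least 1 window. A gene was counted if any of its windows held the letters, while shares of all windows count single windows, so the 2 are not in like units. The full element TGACGTCA was in 5 of these 18 (27.8%: Btg2, Ppp1r15a, Plk2, Maff and Dusp1), against 1.55% of all windows, and its core TGACG, which lies within it, was in 10 (55.6%) against 17.8%. TGACTCA and TATAAA were in none of the 18, and GAANNTTC was in Hspa1a and Hspa1b alone. CCAAT was in 7 of 18 (38.9%) against 33.8% of all windows, the EGR element GCGTGGGCG in 1 (Maff) against 0.536%, and the CArG box in 1 (Zfp36). The genes were chosen for being high together, so these shares are a description, and capitals are as above.
Dusp1, chr17:26508473-26508722, minus strand: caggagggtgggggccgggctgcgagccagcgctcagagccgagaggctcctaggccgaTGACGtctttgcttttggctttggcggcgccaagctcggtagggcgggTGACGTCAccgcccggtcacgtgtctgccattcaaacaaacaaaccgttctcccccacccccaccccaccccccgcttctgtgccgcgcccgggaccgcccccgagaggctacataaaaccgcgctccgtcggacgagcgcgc
Nr4a1, chr15:101266596-101266845, plus strand: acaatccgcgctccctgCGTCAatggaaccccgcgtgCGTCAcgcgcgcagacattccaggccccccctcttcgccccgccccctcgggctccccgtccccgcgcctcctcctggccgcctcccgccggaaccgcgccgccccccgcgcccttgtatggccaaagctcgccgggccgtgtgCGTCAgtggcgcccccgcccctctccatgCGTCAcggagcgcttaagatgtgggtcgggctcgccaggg
Hspa1a, chr17:34972157-34972406, minus strand: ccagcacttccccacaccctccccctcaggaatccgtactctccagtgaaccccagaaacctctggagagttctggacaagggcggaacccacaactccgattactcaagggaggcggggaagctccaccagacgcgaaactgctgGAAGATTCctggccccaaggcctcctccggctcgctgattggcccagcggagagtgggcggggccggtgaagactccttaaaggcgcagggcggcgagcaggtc
Dusp1 held the full element at -143 and a further core at -191. Nr4a1 held 4 cores, at -233, -213, -69 and -40, all on the other strand. Hspa1a held GAANNTTC at -104, at the same distance as in Hspa1b, its near-identical neighbour.

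The cAMP and CREB response genes, the pathway downstream of the prostaglandin I2 receptor, had list medians of 0.39 labelled IPKO and 0.34 labelled WT. At least 1.5-fold higher were 2 of 14 measured genes labelled IPKO, Nr4a1 and Dusp1, and 3 of 13 labelled WT, Nr4a1, Dusp1 and Sik1. All 3 also stand on a list described above. Sik1, a kinase that restrains CREB coactivators, had 0.26 labelled IPKO and 0.74 labelled WT. Crem and Nfil3, further CREB targets, were near level, at -0.06 and -0.01 labelled IPKO and -0.04 and 0.00 labelled WT. Per2, a clock gene with a cAMP response element, had 0.30 labelled IPKO and 0.95 labelled WT, where it was under 5 CPM.

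Heat shock genes were higher in part. At least 1.5-fold higher were 4 of 24 measured genes in each library, and Hspa1a, Hspa1b and Dnajb1 were higher in both, while the list medians were 0.19 labelled IPKO and 0.21 labelled WT. Hspa1a, an inducible HSP70 chaperone, stood at 955 CPM in high-score cells and 587 CPM in mid-score cells labelled IPKO, and at 148 and 77.6 CPM labelled WT. Hspa1b stood at 619 against 343 CPM labelled IPKO and 87.1 against 49.0 CPM labelled WT, and the split of UMIs between these near-identical genes is uncertain. Dnajb1, the co-chaperone of HSP70, stood at 149 against 78.9 CPM labelled IPKO and 41.6 against 24.9 CPM labelled WT.

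Chaperones of the same list that act at all times moved less. Hsp90ab1 had ratios of 0.14 labelled IPKO and 0.07 labelled WT, Hspa8 had 0.22 and 0.13, and Stip1, which joins HSP70 and HSP90, had -0.07 in both. The fourth gene past 1.5-fold was Hspb1, a small heat shock protein, labelled IPKO (0.61, with 0.21 labelled WT) and Dnajb4 labelled WT (0.60, with 0.56 labelled IPKO). Hspa1a labelled IPKO fell below 1.5-fold with the top 20% of cells (0.56), and Hspb1 was below it under 7 alternatives, at 0.47 to 0.58. Genes of the unfolded protein response, the endoplasmic reticulum arm of protein stress, and of the integrated stress response formed 1 list. Its medians were 0.09 labelled IPKO and 0.01 labelled WT. Of its genes, 0 of 26 passed 1.5-fold in either library, but 99.2% of all measured genes labelled IPKO and 98.7% labelled WT also stayed within it. Atf4 had 0.43 labelled IPKO and 0.25 labelled WT, Dnajb9 0.30 and 0.41, and Sdf2l1, the lowest, -0.47 and -0.24.

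Among the EGF receptor ligand, cytokine and chemokine genes, 1 of 9 measured was at least 1.5-fold higher labelled IPKO (median 0.01) and 2 of 9 labelled WT (median 0.05). Hbegf, a membrane-bound ligand of the EGF receptor, stood at 50.3 CPM in high-score cells and 28.4 CPM in mid-score cells labelled IPKO, and at 43.7 and 14.1 CPM labelled WT, ratios of 0.82 (0.69 to 0.96) and 1.63 (1.47 to 1.80). Areg, another ligand of that receptor, had 0.18 labelled IPKO and 0.73 labelled WT, and the WT-labelled value was 0.31 when mid-score cells were matched on UMIs and mitochondrial share. Ptgs2, the inducible cyclooxygenase that supplies the precursor of prostaglandin I2, was higher in both, at 54.6 against 30.6 CPM labelled IPKO and 49.3 against 21.7 CPM labelled WT. Ptges, the prostaglandin E synthase gene, named here because of its value, ran the other way, with -0.54 labelled IPKO and -0.68 labelled WT.

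Further genes higher in both libraries were Nfkbiz, Irs2, Cyr61 and Thbs1, the last 2 of which are named because of their values. Nfkbiz, a nuclear cofactor of NF-kB, stood at 83.7 against 49.4 CPM labelled IPKO and 44.5 against 24.1 CPM labelled WT. It was the only gene past 1.5-fold of 15 measured on the NF-kB feedback list in each library. Nfkbia, the classic inhibitor on that list, had 0.24 labelled IPKO and 0.22 labelled WT, and the list medians were 0.09 and 0.19. Irs2, an insulin receptor adaptor, had 0.62 labelled IPKO and 0.77 labelled WT, and labelled IPKO it was below 1.5-fold under 6 alternatives (0.47 to 0.58). Cyr61 and Thbs1, both secreted matrix proteins, had 1.18 and 0.64 labelled IPKO and 0.94 and 1.16 labelled WT. Cyr61 is a YAP target whose newer symbol, Ccn1, stood on the YAP list without matching. Of the genes measured on that list, 0 of 9 labelled IPKO and 0 of 10 labelled WT passed 1.5-fold, with medians of 0.29 labelled IPKO and 0.30 labelled WT. The 5 genes of the 26 not yet described are Taf7, a subunit of the general transcription factor TFIID (0.61 in both), Tril (0.68 labelled IPKO, 0.60 labelled WT), Glt28d2 (0.63 and 0.68), Gm26532 (0.97 and 1.74) and 8430408G22Rik (0.63 and 0.70).

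The study's title also names p53. Trp53, the p53 gene itself, stood at 11.3 CPM in high-score cells and 9.57 CPM in mid-score cells labelled IPKO, and at 12.7 and 10.8 CPM labelled WT, and both intervals of the ratio include 0 (-0.04 to 0.51 labelled IPKO, -0.04 to 0.50 labelled WT). Cdkn1a, the cell cycle inhibitor p21, stood at 61.8 against 45.9 CPM labelled IPKO and 56.6 against 41.1 CPM labelled WT, ratios of 0.43 (0.31 to 0.55) and 0.46 (0.33 to 0.59). Mdm2, the ubiquitin ligase that limits p53, had 0.35 (0.17 to 0.52) labelled IPKO and 0.34 (0.15 to 0.52) labelled WT. Cdkn1a and Mdm2 were thus above the all-gene medians and under 1.5-fold in both libraries.

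Of 19 measured p53 list genes, 3 were higher labelled IPKO (Plk2, Btg2 and Sesn1) and 2 labelled WT (Plk2 and Btg2), with medians of 0.24 labelled IPKO and 0.23 labelled WT. Bax, which promotes cell death, had -0.08 labelled IPKO and -0.03 labelled WT, and Aen had 0.04 and -0.12. The antiapoptotic gene Mcl1, on the list of apoptosis regulators, had 0.54 labelled IPKO and 0.64 labelled WT, where it was 0.52 with the top 20% of cells and 0.51 under median-of-ratios scaling. The high-score cells were in the top 10% of the p53 list's summed share in 29.4% of cases in each library. For mid-score cells this was 7.83% labelled IPKO and 7.82% labelled WT. Btg2, which is also on the feedback list, held 549 of the p53 list's 1020 CPM in high-score cells labelled IPKO. Labelled WT it held 390 of 834 CPM, so this share rests largely on 1 gene.

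The AT2 program itself was near level by list median, though not by summed share, which was mostly Sftpc. The medians of the 27 surfactant and AT2 identity genes were 0.01 labelled IPKO and -0.02 labelled WT, both below the all-gene medians. None differed 1.5-fold in either library, and 99.2% of all measured genes labelled IPKO and 98.7% labelled WT also stayed within it. High-score cells were in the top 10% of this list's summed share in 2.71% of cases labelled IPKO and 3.125% labelled WT, against 10.4% and 9.98% of mid-score cells. Sftpc, which the rule required, took 195331 of the list's 293929 CPM in high-score cells labelled IPKO. Labelled WT it took 195889 of 299637 CPM. The summed shares thus mainly follow Sftpc and say little about the other genes of the list. Sftpc had -0.11 labelled IPKO and -0.12 labelled WT, Abca3, the lipid transporter of lamellar bodies, had 0.06 in both, and Nkx2-1, the lineage factor, had 0.20 and 0.22. The transcription factors Gata6, Foxa1 and Foxa2 had 0.35, 0.27 and 0.22 labelled IPKO and 0.41, 0.35 and 0.41 labelled WT. Lyz1, a lysozyme gene, was the lowest on this list, at 1919 CPM in high-score cells and 2732 CPM in mid-score cells labelled IPKO, and at 1842 and 2666 CPM labelled WT (-0.51 and -0.53).

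Genes of AT1 cells and of the state between AT2 and AT1 cells stayed near the all-gene values. Krt8, a keratin of that transitional state, stood at 143 against 145 CPM labelled IPKO and 135 against 123 CPM labelled WT, ratios of -0.02 (-0.09 to 0.06) and 0.13 (0.05 to 0.21). The transitional list had medians of -0.02 labelled IPKO and 0.04 labelled WT. Its 1 gene higher in both was Hbegf, and its 1 gene lower in both was Sprr1a, a cornified envelope gene, with 2 UMIs in high-score cells and 330 in mid-score cells labelled IPKO and 10 and 499 labelled WT. Sprr1a came from few cells, since 59 of the 330 mid-score UMIs labelled IPKO and 163 of the 499 labelled WT lay in 1 cell. AT1 genes had medians of 0.19 labelled IPKO and 0.14 labelled WT, with Timp3, a metalloproteinase inhibitor, at 0.57 and 0.66, and Hopx, a homeodomain gene of AT1 cells, at 0.01 and -0.61. Labelled WT, Timp3 was 0.47 with the top 20% of cells and Hopx was -0.10 with no Sftpc minimum.

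Secreted defence genes were the list furthest below the rest. The medians were -0.22 labelled IPKO and -0.19 labelled WT, 2 of 14 measured genes were at least 1.5-fold lower labelled IPKO and 3 of 13 labelled WT, and none was 1.5-fold higher. Dmkn, an epidermal secreted protein gene outside this list, was lower in both libraries, at 2.37 against 6.17 CPM labelled IPKO and 6.89 against 11.8 CPM labelled WT. Lrg1, a secreted glycoprotein of the acute phase, stood at 103 CPM in high-score cells and 210 CPM in mid-score cells labelled IPKO, and at 151 and 265 CPM labelled WT, ratios of -1.03 (-1.11 to -0.94) and -0.81 (-0.89 to -0.74). Labelled WT it was short of 1.5-fold with the top 20% of cells (-0.55), without Jun in the score (-0.58) and against matched mid-score cells (-0.57).

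Lcn2, which binds bacterial siderophores, had -0.32 labelled IPKO and -0.39 labelled WT, and Slpi, a protease inhibitor, had -0.32 and -0.19. Scgb1a1, the club cell secretoglobin, stood at 239 against 322 CPM labelled IPKO and 708 against 1203 CPM labelled WT. Its ratio labelled WT, -0.77, was -0.41 against matched mid-score cells. Retnla, a resistin-like secreted protein, had -1.82 labelled IPKO and -0.74 labelled WT. The WT-labelled value was 0.15 against matched cells, so its direction there depends on which mid-score cells are taken. High-score cells were in the top 10% of this list's summed share in 3.25% of cases labelled IPKO and 4.06% labelled WT, against 10.6% and 10.2% of mid-score cells.

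Nuclear long noncoding RNAs stood above the all-gene medians without reaching 1.5-fold. Malat1, an abundant long noncoding RNA kept in the nucleus, stood at 22296 CPM in high-score cells and 15961 CPM in mid-score cells labelled IPKO, and at 23439 and 17320 CPM labelled WT, ratios of 0.48 and 0.44. Neat1, which builds paraspeckles, had 0.41 labelled IPKO and 0.45 labelled WT. Kcnq1ot1 had 0.50 and 0.54. The list medians were 0.45 labelled IPKO and 0.44 labelled WT. Ribosomal protein genes and mitochondrially encoded genes ran slightly the other way, with medians of -0.07 and -0.05 labelled IPKO and -0.08 and -0.06 labelled WT, so nuclear RNAs took more and these RNAs less of the UMIs in high-score cells. The part of this shift in the other results was not tested.

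Clock genes had medians of 0.21 labelled IPKO and 0.44 labelled WT, with Cry2, a repressor of the clock, at 0.43 and 0.82 and Per1 at 0.44 and 0.50. At least 1.5-fold higher were 0 of 13 measured labelled IPKO and 2 of 14 labelled WT, Cry2 and Nr1d1. MHC class II genes, which AT2 cells carry constitutively, had medians of -0.08 labelled IPKO and -0.02 labelled WT, with none past 1.5-fold.

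Across deciles of the score Junb, Hspa1a and Klf4, named here as examples, climbed in both libraries and gained most CPM from the ninth to the tenth decile. Junb ran from 61.4 CPM in the lowest decile to 447 in the ninth and 598 in the tenth labelled IPKO, and labelled WT from 61.1 to 345 and 485. Hspa1a ran from 124 to 783 and 955 CPM labelled IPKO, and from 29.4 to 121 and 148 CPM labelled WT. Klf4 ran from 8.82 to 57.3 and 74.3 CPM labelled IPKO, and from 7.79 to 45.0 and 76.4 CPM labelled WT. In all of these series each decile was above the one before it, and the gain in CPM into the tenth decile was larger than that into the ninth. Klf6 labelled IPKO gained more into the ninth decile, from 298 to 365 CPM, than into the tenth, at 427 CPM. The tenth decile is the open end of the score, and the summed score genes, set by the rule, also rose most into it. They went from 6369 to 8728 CPM labelled IPKO and from 3931 to 6044 CPM labelled WT. How far this sets the last step of the other genes was not tested.

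**Figure D4:**
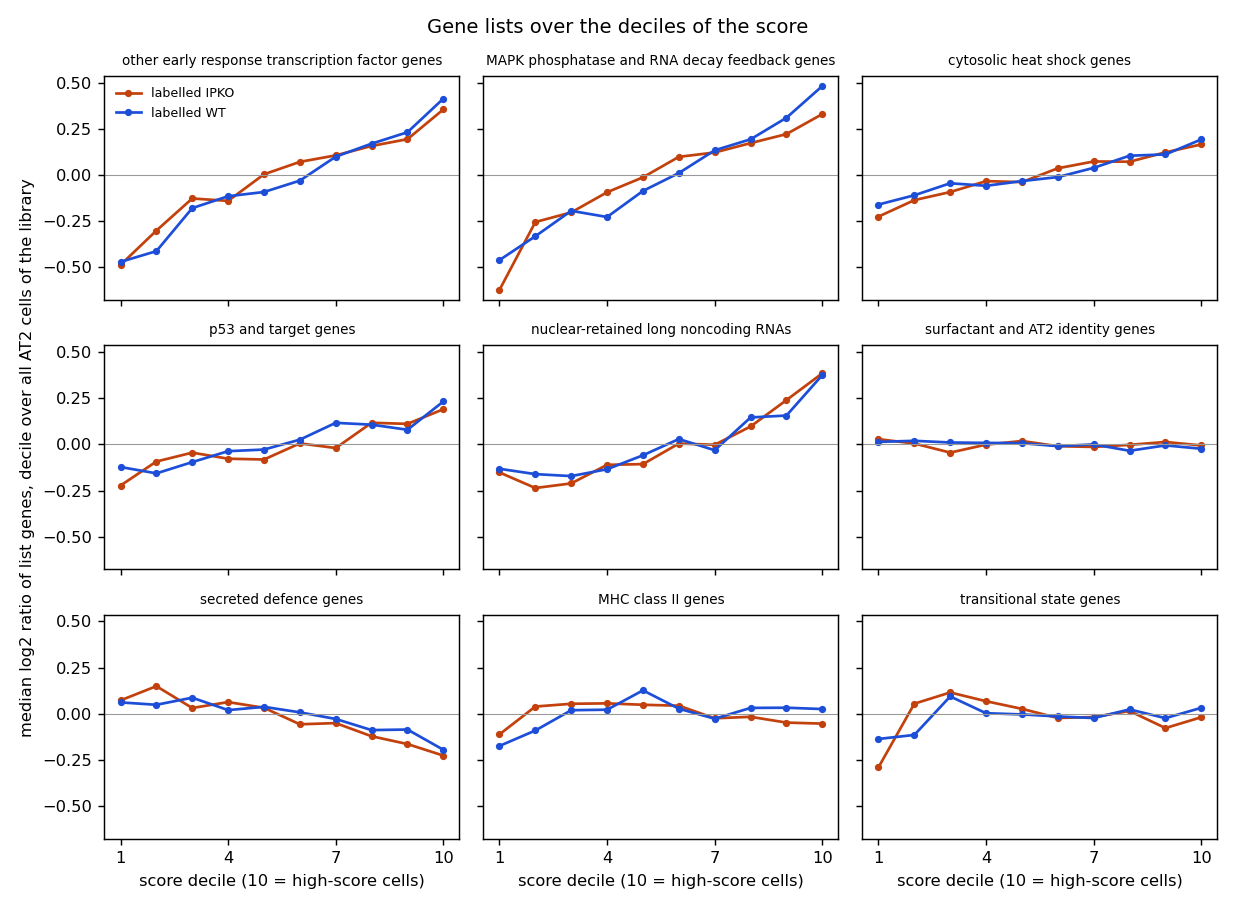
Median log2 ratio of the genes of 9 lists (vertical axis, level in a decile over the level in all AT2 cells of the library) by decile of the score (horizontal axis, 10 being the high-score cells) in the library labelled IPKO (orange) and the library labelled WT (blue). The feedback list runs from -0.62 to 0.33 labelled IPKO and from -0.46 to 0.48 labelled WT, the surfactant and AT2 list stays between -0.04 and 0.03, and the secreted defence list ends at -0.23 and -0.20.

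Between the libraries, high-score cells differed less in the score genes than mid-score cells did. The median log2 ratio of the 6 genes, labelled IPKO over labelled WT, was 0.63 in high-score cells and 1.30 in mid-score cells. Both kinds of cell were cut on the sum of these genes within each library. These ratios therefore follow the score boundaries and are a description and not a finding. Over all 8295 genes, 179 (2.16%) were at least 1.5-fold higher and 156 (1.88%) at least 1.5-fold lower labelled IPKO in high-score cells, and 121 (1.46%) and 111 (1.34%) in mid-score cells, where more UMIs leave less counting error. Heat shock genes differed in both kinds of cell, with medians of 0.50 in high-score and 0.41 in mid-score cells, and 8 of 24 genes higher labelled IPKO in high-score and 7 in mid-score cells. Hspa1a had the ratios 2.69 in high-score and 2.92 in mid-score cells, and Klf2 had 1.86 and 2.27.

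Cells of equal score were set side by side, those between 46.2 and 71.2, which are high-score cells in the library labelled WT and lie below the boundary in the library labelled IPKO. There were 1676 such cells labelled IPKO (22.7% of AT2 cells) and 527 labelled WT (8.24%), with median scores of 56.2 and 54.3. The median ratio of the score genes was 0.09, but the mixture differed: Ier2 (0.53), Fosb (0.32) and Jun (0.15) were above level and Fos (-0.47) was below it labelled IPKO, while Atf3 (0.02) and Egr1 (-0.04) were near level. Outside the score, the feedback genes had a median of 0.01 and the other transcription factor genes 0.12, with Nr4a1 at 0.12, Dusp1 at -0.06 and Junb at -0.06.

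Some lists differed between the libraries about as much at equal score as in all high-score cells, and others did not. Hspa1a stood at 745 CPM labelled IPKO and 148 CPM labelled WT, a ratio of 2.33 (2.26 to 2.42), Dnajb1 had 1.46 (1.30 to 1.62) and Klf2 had 1.33 (1.13 to 1.55), below its ratios in all high-score and mid-score cells. Klf4 ran the other way, at 52.2 CPM labelled IPKO and 71.7 CPM labelled WT (-0.46). Heat shock genes had a median of 0.37, with 8 of 24 at least 1.5-fold higher labelled IPKO. MHC class II genes had 0.61, unfolded protein and integrated stress response genes -0.31 and mitochondrially encoded genes -0.46. Circadian clock genes had a median of -0.42 at equal score, -0.32 in all high-score cells and -0.04 in mid-score cells. Interferon-induced genes had medians of 0.21 at equal score, 0.30 in all high-score cells and 0.40 in mid-score cells. The median over all genes was -0.00, and 178 (2.15%) were at least 1.5-fold higher and 191 (2.3%) lower labelled IPKO. Genotype, handling and sequencing of the 2 libraries cannot be told apart in these ratios.

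**Figure D5:**
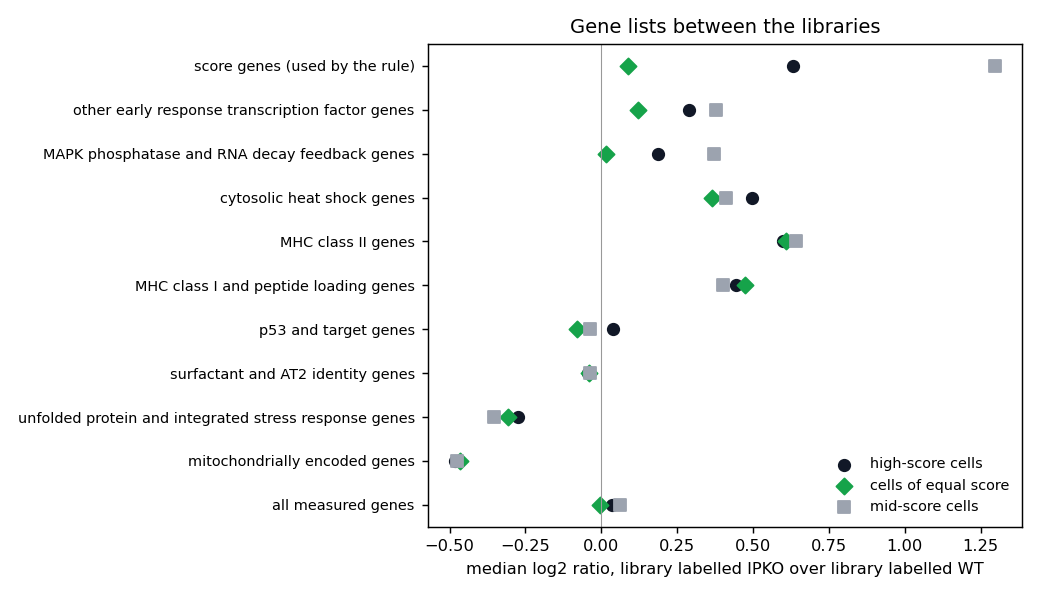
Median log2 ratio between the libraries, labelled IPKO over labelled WT (horizontal axis), for 10 gene lists and all measured genes (rows), in high-score cells (dark circles), cells of equal score (green diamonds) and mid-score cells (grey squares). The score genes lie at 0.63 in high-score cells, 0.09 at equal score and 1.30 in mid-score cells. Matching on their sum sets the value at equal score near 0, and the other values follow the score boundaries of each library. Heat shock genes lie between 0.37 and 0.50 and MHC class II genes between 0.60 and 0.64 in all 3.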

How the data were processed

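Cells were profiled by 10x 3' single-cell RNA-seq, and the deposited files hold UMI counts for each gene and barcode, which the authors made with Cell Ranger 4.0.0 on GRCm38 (mm10), per the submitters' processing notes. No label or header used here names the annotation release. The libraries held 10014 barcodes (IPKO) and 8924 (WT) and 27998 features. Counts were summed over the high-score and the mid-score cells of each library and scaled to CPM, and ratios carry 95% intervals from the exact binomial split of the summed counts (exact Poisson for Ptgir and its floor of 3 counts), covering counting error alone. Genes needed 5 CPM over a library's AT2 cells, and a difference was called at 1.5-fold (0.58 on the log2 scale), with no test.

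The cells, the gene lists and the comparisons were chosen with earlier results of these data known. The 29 lists held 614 entries, of which 607 matched a feature. Genes were named by rule: Ptgir, Jun, Trp53, Cdkn1a, Mdm2, Krt8, Sftpc and the score genes, and then, among 4051 genes of at least 20 CPM in both libraries, the 15 with the highest smaller ratio, the 12 with the lowest larger ratio and the 6 at each end of the difference between libraries. Up to 4 genes a list, 2 at each end, were added. Chosen outside the rule, after their values were seen, were Abca3, Csrnp1, Cyr61, Dmkn, Dnajb4, Foxa1, Hsp90ab1, Hspa8, Id1, Id3, Jund, Lamp3, Mafk, Nfkbia, Nkx2-1, Nr1d1, Per2, Ptges, Sesn1, Sftpb, Sik1, Slpi, Thbs1 and those of the 26 genes higher in both libraries that the rule did not give. Doublets were not called, and alternatives left out the 5% of cells with most UMIs and cells with 3 or more UMIs of other cell types. Per-cell values were thinned to 5000 UMIs. Gene positions are from GENCODE vM21 and promoters from RefSeq (GRCm38.p6). Only the ratio of summed counts and its interval were tested on simulated data, which were drawn without variation between cells. Python 3.11.15 was used, with numpy 2.4.6, scipy 1.17.1, pandas 2.3.3 and matplotlib 3.10.9.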

Additional observations from a re-analysis of the deposited data

Results flagged for a closer look

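S100a6, a calcium-binding protein gene of the transitional list, was the 1 gene of 136 named whose ratio of high-score over mid-score cells had opposite signs in the libraries with both counting intervals clear of 0. It stood at 27.2 CPM in high-score cells and 32.7 CPM in mid-score cells labelled IPKO, a log2 ratio of -0.26 (-0.44 to -0.09), and at 54.1 and 33.1 CPM labelled WT, a ratio of 0.71 (0.57 to 0.84). The difference between the libraries was not tested, since each label has 1 library. Of the 589 S100a6 UMIs in high-score cells labelled WT, 224 (38.0%) lay in 1 cell. Without the single cell with most S100a6 UMIs the ratio was -0.12 labelled IPKO and 0.02 labelled WT. Labelled IPKO it was 0.15 with the top 5% of cells and 0.21 without Fosb in the score.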

How the results depend on the processing

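The number of differing genes depended strongly on the choices, while named genes past 1.5-fold kept their direction with 1 exception. Higher genes labelled IPKO (58) numbered 100 with no Sftpc minimum, 132 with the top 5% of cells, 20 with the top 20%, 311 against the cells below the 25th percentile of the score, 96 with separate UMIs for score and level, 108 against matched mid-score cells, 26 under median-of-ratios scaling, 23 and 259 with minimums of 20 and 1 CPM, and 28 with 1 boundary for both libraries. Lower genes labelled IPKO (11) numbered 30, 26, 5, 33 and 25 under the first 5 of these, 17 under median-of-ratios scaling, 3 and 112 with the CPM minimums, and 5 with 1 boundary. Higher genes labelled WT (90) numbered 152, 239, 32, 490, 176, 205, 38, 33, 335 and 415 in the order used for the higher genes labelled IPKO. Lower genes labelled WT (23) numbered 47 and 3 with the top 5% and top 20%, 41 against the cells below the 25th percentile, 15 without Jun in the score, 13 against matched cells, 40 under median-of-ratios scaling, 5 and 112 with the CPM minimums, and 83 with 1 boundary. The cause of these shifts was not tested, beyond that fewer or more genes, cells or UMIs enter.

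The median of the other transcription factor genes (0.33 labelled IPKO, 0.40 labelled WT) was 0.71 and 0.82 against the cells below the 25th percentile. Over all alternatives it ran from 0.23 to 0.71 labelled IPKO and from 0.28 to 0.82 labelled WT. The reversed value was that of Retnla labelled WT, which had -0.74, and 0.15 against matched cells. Of 759 values of genes called labelled IPKO, over all alternatives, 719 stayed past 1.5-fold, and of 874 labelled WT 833 did. These values include the score genes, which the rule chose to be high, and genes named for their extreme ratios. The CPM minimums change which genes enter and leave the ratio of a gene as it was. The counts of kept values and the kept directions were thus partly set by the choice of genes and alternatives, and they are no test of robustness. No paired analysis was possible because each label has 1 library and no replicate numbers.

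With 1 library for each label, genotype, mice, handling and sequencing cannot be told apart. High-score cells carry no test because the score chose them. Genes near 5 CPM rest on fewer UMIs and have wider counting intervals, such as 0.60 to 1.26 for Cyr61 labelled WT.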
